A study of Mus musculus with 12 samples.

Results

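Cells hold a set of proteins that block retrotransposition of LINE-1 (L1), the retrotransposon that still copies itself in the mouse genome. The genes described here encode 8 of these host restriction factors: *Mov10*, *Apobec3*, *Samhd1*, *Trex1*, *Zc3hav1*, *Adar*, *Tex19.1* and *Rnaseh2a*. They were chosen by name for what their proteins are known to do, not by a measured value, but with earlier results of these data known. Each was read from its own row of the deposited count table, 8 rows of the 20620 gene rows. All 8 had counts in every library.

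Testes of C57BL/6 mice at postnatal day 16 (P16) were compared between *Mael*+/- and *Mael*-/- animals. *Mael* encodes Maelstrom, a protein of the piRNA pathway, which silences transposons in male germ cells through small RNAs. The study profiled ribosomes in these testes to ask whether the translation of cellular mRNAs is disturbed where L1 is overexpressed. Total RNA and ribosome footprints, the RNA fragments that ribosomes shield from nuclease, were sequenced from 3 extracts of each genotype, which gave 4 groups of 3 libraries. All animals carried at least 1 mutant allele, so the controls were heterozygous and not wild type. All testes were collected in cycloheximide, a drug that holds ribosomes in place on mRNA. The labels do not say whether an extract came from 1 animal or from several, so the p-values measure the spread between extracts. Extracts were made from whole testes, in which germ cells, Sertoli cells, Leydig cells and macrophages are mixed. Fewer cells of a type and less RNA per cell can therefore not be told apart.

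L1 moves by copying its RNA into DNA at a nick in the genome, using the proteins ORF1p and ORF2p that its own RNA encodes. Host factors act at different points of this cycle. Some bind or degrade L1 RNA or its protein complexes in the cytoplasm, some edit or unwind RNA, and some limit or clear the DNA copies and RNA-DNA hybrids that reverse transcription leaves behind. Several were first known as antiviral proteins, and *Tex19.1* is a germline gene.

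Gene counts summed to 13697267 to 27462358 per RNA library and 7609932 to 13233565 per footprint library. Values are given as CPM, gene counts divided by the library's total and set to a common scale after trimmed-mean (TMM) scaling within each assay. *Mael* itself stood at 219, 158 and 144 CPM in *Mael*+/- RNA and at 0.0728, 0.0991 and 0 CPM in *Mael*-/- RNA, as the genotype labels state. L1Md_T, a young L1 subfamily summed over its copies, ranged from 55.9 to 85.4 CPM in *Mael*+/- RNA and from 306 to 521 CPM in *Mael*-/- RNA, and from 36.2 to 42.7 CPM and 159 to 255.6 CPM in footprints. The first *Mael*+/- extract stood apart. Its 14 measured markers of pachytene, a late stage of meiotic prophase, summed to 958 CPM in RNA, against 356 and 379 CPM in the other *Mael*+/- extracts and 293 to 327 CPM in *Mael*-/-. In footprints the same sum was 1113 CPM against 339 and 408 CPM, and 302 to 341 CPM in *Mael*-/-. The members' results are given below with this extract and, where it changes a value or a call, without it. Its 10 early prophase markers were high as well, at 2555 CPM in RNA against 1049 to 1503 CPM in the other 5 RNA libraries. Sums of the spermatogonial, Sertoli, Leydig and macrophage markers were present in all groups and overlapped between genotypes.

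Some stretches of the members' coding sequence also occur elsewhere in the genome, which bears on how far their counts belong to them alone. Of all 30-base windows of coding sequence, about the length of a footprint, 740 of 3205 in *Mov10* (23.1%), 214 of 877 in *Rnaseh2a* (24.4%) and 57 of 1027 in *Tex19.1* (5.55%) had an exact copy elsewhere in GRCm38. The other 5 members had 0 such windows. The copies of *Mov10* lie in Gm7357 on chromosome 1 and those of *Rnaseh2a* in Gm15703 on chromosome 16, neither of which is a row of the count table. Of the 57 *Tex19.1* windows, 54 lie in its neighbouring paralog *Tex19.2*. The longest shared stretch of the pair is printed here from the reference genome GRCm38.p6, since footprints that fall within it cannot tell the genes apart. Capitals mark the 69 identical bases, coding positions 391 to 459 of *Tex19.1* (chr11:121147196-121147288, plus strand, with 12 flanking bases on each side) and 334 to 402 of *Tex19.2* (chr11:121117207-121117299, minus strand).
Tex19.1: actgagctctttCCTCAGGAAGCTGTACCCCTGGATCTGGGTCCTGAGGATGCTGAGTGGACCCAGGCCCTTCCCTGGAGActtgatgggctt
Tex19.2: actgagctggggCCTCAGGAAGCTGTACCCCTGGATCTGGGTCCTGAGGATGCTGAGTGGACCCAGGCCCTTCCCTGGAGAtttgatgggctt
The footprint counts of *Tex19.1* and *Tex19.2* are therefore uncertain, and those of *Mov10* and *Rnaseh2a* over a larger share of their coding sequence. Whether reads with several matches were kept, split or dropped is not stated in the sources used here. RNA reads were longer than these windows and than the 69 identical bases, and their matches elsewhere were not examined. Genes on the opposite strand overlap *Apobec3* (*Cbx7* and D730005E14Rik) and *Adar* (*Chrnb2*). Whether counting used the strand is not stated either, and the part of these overlaps in the counts was not tested.

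The expression of the restriction factors did not differ detectably between genotypes in either assay. Of the 8 members, 0 passed an adjusted p of 0.05 in RNA, where edgeR's quasi-likelihood test called 0.116% of all genes tested (17 of 14685), and 0 passed in footprints, where it called 0.0593% (8 of 13500). At an unadjusted p under 0.05 the number was again 0 of 8 in each assay, against 5.4% of all genes in RNA and 4.33% in footprints. The log2 fold changes of the members in RNA, *Mael*-/- over *Mael*+/-, ran from -0.04 for *Mov10* to 0.07 for *Zc3hav1*, with a median of 0.05. Their 95% confidence intervals together spanned -0.30 to 0.36, that is 0.812-fold to 1.28-fold. In footprints the values ran from -0.25 for *Trex1* to 0.20 for *Apobec3*, with a median of 0.03, and the intervals spanned -0.59 to 0.52, or 0.666-fold to 1.43-fold. All 8 intervals lay within 2-fold in both assays, as did those of 88.7% of all genes in RNA and 90.7% in footprints. The median over all genes tested was -0.0013 in RNA and -0.01 in footprints.

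**Figure D1:**
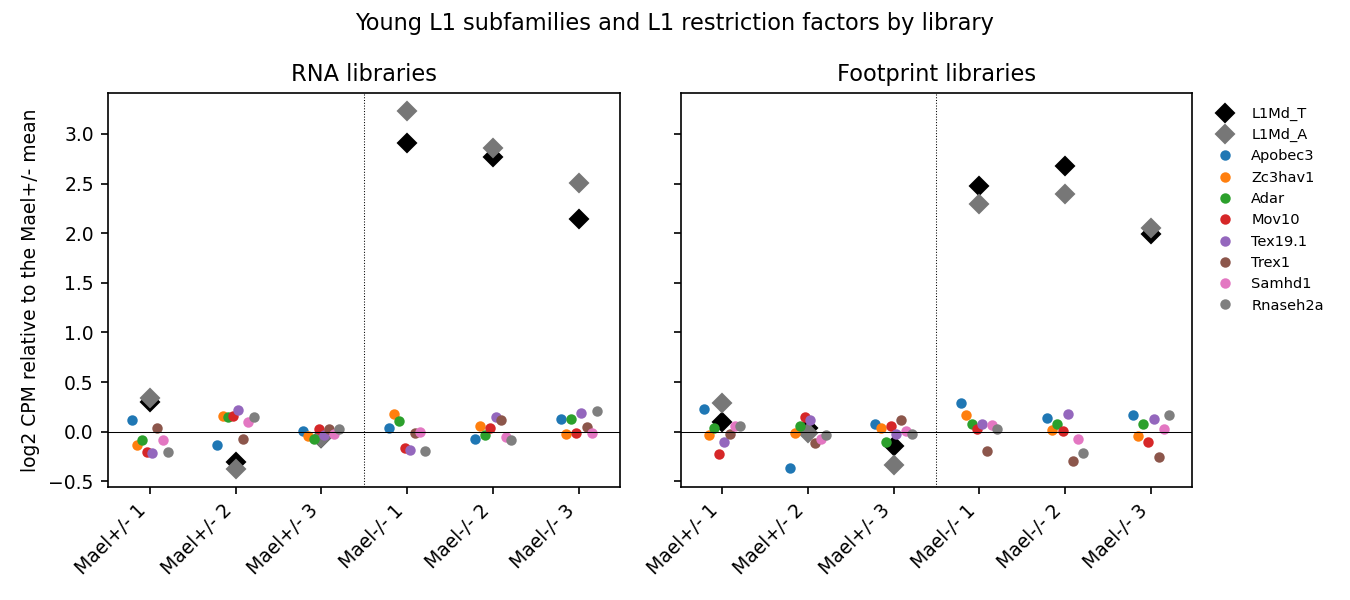
Young L1 subfamilies and the 8 restriction factors in each library. The y axis is log2 CPM relative to the mean of the *Mael*+/- libraries of that assay, the x axis lists the 6 libraries of each assay, diamonds are L1Md_T and L1Md_A summed over their copies, and circles are the restriction factors. Every diamond lies above all circles in the *Mael*-/- libraries (L1Md_T at 306 to 521 CPM in RNA), while the circles stay around 0 in all 12 libraries.

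Without the first *Mael*+/- extract no member was called either. In RNA their log2 fold changes then ran from -0.14 to 0.10, with 0 of 8 called against 64 of 14876 genes in all (0.43%). In footprints they ran from -0.26 to 0.32, with 0 of 8 called against 17 of 13654 genes in all (0.1245%). Only *Apobec3* had an unadjusted p under 0.05 there (adjusted p = 0.783 in edgeR's test). Over both assays, leaving out the same extract, 0 of 8 members were called for translation efficiency, where 0 of 13608 genes were called.

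Translation efficiency, the change of footprints beyond that of RNA, was tested as the interaction of genotype and assay over the 12 libraries. This model took the RNA and footprint libraries of an extract as independent, although they share their source. Ignoring that pairing can make the test conservative and its intervals wide. None of the 8 members was called by edgeR's quasi-likelihood test, which called 0% of the 13448 genes tested. At an unadjusted p under 0.05 the test passed 0 of 8 members and 53 genes in all (0.394%). DESeq2 called 0 genes too, and so did edgeR with the extract as a block, which uses the pairing. The members' values ran from -0.30 for *Trex1* to 0.16 for *Apobec3* on the log2 scale, with a median of 0.02, and their intervals spanned -0.66 to 0.58, or 0.632-fold to 1.49-fold.

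**Figure D2:**
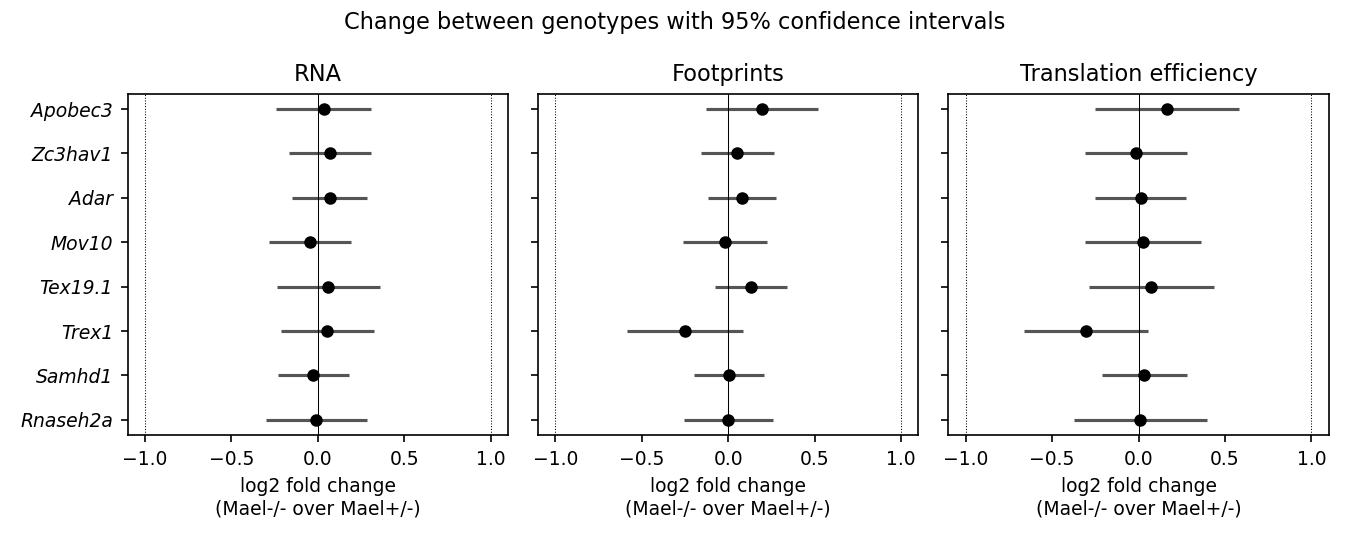
Change of each restriction factor between genotypes, by RNA level, footprint level and translation efficiency. Points are log2 fold changes, *Mael*-/- over *Mael*+/-, lines are 95% confidence intervals from edgeR's quasi-likelihood fit, and dotted lines mark 2-fold. All 24 intervals include 0 and lie within the dotted lines, and *Trex1* lies lowest in footprints and translation efficiency.

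*Mov10* encodes an RNA helicase of cytoplasmic RNA granules and binds L1 ribonucleoproteins. The gene lies at chr3:104794828-104818619 on the minus strand, and its longest coding transcript has 21 exons. In RNA it stood at 154, 198 and 180 CPM in *Mael*+/- and 159, 182 and 176 CPM in *Mael*-/-. In footprints it stood at 201, 260 and 245 CPM and at 239, 236 and 219 CPM. The groups overlapped in both assays, and the first *Mael*+/- library was the lowest in each. The log2 fold change was -0.04 (SE 0.11) in RNA and -0.02 (SE 0.11) in footprints, with adjusted p of 0.985 and 0.998 in edgeR's test. *Mov10l1*, its germline paralog and a helicase of piRNA production, stood at 356, 233 and 216 CPM in *Mael*+/- RNA and 206, 196 and 190 CPM in *Mael*-/- RNA, without overlap. Its difference of -0.45 did not pass the correction (adjusted p = 0.863, edgeR), and its highest library was the first *Mael*+/- extract, the one with the high pachytene sum. Without that library the difference was -0.19 (SE 0.09, adjusted p = 0.771, edgeR).

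*Zc3hav1* encodes ZAP, an antiviral protein that binds CpG-rich RNA and brings about its decay. It lies at chr6:38305286-38355352 on the minus strand. Its RNA stood at 46.1, 56.6 and 49.4 CPM in *Mael*+/- and 57.5, 52.6 and 49.8 CPM in *Mael*-/-. Its footprints stood at 68.4, 69.3 and 71.7 CPM and at 78.6, 70.4 and 68.0 CPM. The groups overlapped in both assays, with log2 fold changes of 0.07 (SE 0.11) and 0.05 (SE 0.10). *Trim25* and *Khnyn*, which encode the ubiquitin ligase and the nuclease that work with ZAP, overlapped between genotypes as well. *Trim25* ranged from 42.3 to 51.9 CPM over all 6 RNA libraries, and *Khnyn* from 26.9 to 39.4 CPM.

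*Adar* encodes ADAR1, which converts adenosine to inosine in double-stranded RNA. It lies at chr3:89714469-89753455 on the plus strand. Its RNA stood at 80.8, 94.6 and 81.2 CPM in *Mael*+/- and at 92.1, 83.7 and 93.5 CPM in *Mael*-/-. In footprints it stood at 92.0, 93.8 and 83.7 CPM in *Mael*+/- and at 94.8, 94.6 and 95.03 CPM in *Mael*-/-. In footprints every *Mael*-/- library was thus above every *Mael*+/- library, by a small margin, with a log2 fold change of 0.08 (SE 0.09) that did not pass the test (adjusted p = 0.998, edgeR). *Adarb1*, which encodes ADAR2, a related editing enzyme, overlapped between genotypes and had less RNA, 49.7 to 62.2 CPM over the 6 RNA libraries. *Adad2*, an ADAR-related gene of male germ cells, gave -0.46 in RNA and -0.48 in footprints, which did not pass the correction either (edgeR adjusted p of 0.857 and 0.775), and -0.25 and -0.36 without the first *Mael*+/- extract.

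*Apobec3* encodes the mouse cytidine deaminase that acts on retroviruses and retrotransposons during reverse transcription. It lies at chr15:79892058-79918218 on the plus strand. Its RNA, the lowest of the 8 per length, stood at 16.7, 13.97 and 15.4 CPM in *Mael*+/- and 15.8, 14.6 and 16.7 CPM in *Mael*-/-. Its footprints stood at 41.4, 27.4 and 37.4 CPM in *Mael*+/- and at 43.1, 38.8 and 39.9 CPM in *Mael*-/-. The second *Mael*+/- footprint library was the lowest, and the highest library was 1.57 times the lowest, the widest spread of any member in either assay. The groups overlapped, and the log2 fold change was 0.20 (SE 0.15, adjusted p = 0.998) in footprints by edgeR's test and 0.03 (SE 0.12) in RNA. *Apobec3* is known from blood and immune cells, and the 13 measured macrophage markers, 0 of them absent, summed to 190 to 321 CPM in *Mael*+/- RNA and 298 to 305 CPM in *Mael*-/- RNA. In footprints they summed to 274, 219 and 424 CPM in *Mael*+/- and to 341 to 396 CPM in *Mael*-/-. The lowest sum was in the same second *Mael*+/- extract. The highest *Mael*+/- sum was in the third extract, while *Apobec3* footprints were highest in the first of the *Mael*+/- extracts. The same held in RNA. The part of these cells in the level of *Apobec3* was not tested. Interferon-stimulated genes often carry the core of the interferon-stimulated response element upstream of their start, which was searched as the letters GAAA, any 2 bases, and GAAA again. In the 250 bases before each RefSeq start (GRCm38.p6), searched on both strands, these letters were found at 978 of 32851 promoters of all genes (2.98%) and at 1 of the 13 promoters of the 8 members. That promoter belongs to *Apobec3*, and the stretch is printed because *Apobec3* is the member with the most footprints per RNA. Capitals mark the motif, which reads on the opposite strand, 140 bases before the RefSeq start of that promoter (chr15:79892259-79892286, plus strand). The annotated span of *Apobec3* given above begins before this stretch, so the motif lies within the gene.
Apobec3: atcagttagTTTCCCTTTCtctttgcga
The match describes these letters only, and binding was not measured in this study.

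*Tex19.1* encodes a mammal-specific germline protein that restrains L1 mobility and binds the ubiquitin ligase UBR2. It lies at chr11:121146143-121148314 on the plus strand. Its RNA stood at 78.6, 106 and 88.7 CPM in *Mael*+/- and 80.1, 101 and 104 CPM in *Mael*-/-. In footprints it stood at 106, 123 and 111 CPM in *Mael*+/- and at 120, 129 and 124 CPM in *Mael*-/-. The groups overlapped in both assays, and the log2 fold change of 0.13 (SE 0.09) in footprints did not pass the test (edgeR adjusted p = 0.998). *Tex19.2*, the paralog that shares the stretch above, stood at 68.0, 63.1 and 71.0 CPM in *Mael*+/- RNA and 74.4, 76.1 and 82.4 CPM in *Mael*-/- RNA, without overlap. Its log2 fold change of 0.21 (SE 0.09) missed the correction (adjusted p = 0.923, edgeR), and its footprints overlapped. *Ubr2* RNA ranged from 131 to 166 CPM and overlapped between genotypes.

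The remaining 3 members act on nucleotides, DNA or RNA-DNA hybrids. *Trex1* encodes a cytosolic exonuclease that degrades DNA, including reverse-transcribed copies, and lies at chr9:109057932-109059723 on the minus strand. Its RNA stood at 11.96, 11.1 and 11.9 CPM in *Mael*+/- and 11.6, 12.7 and 12.1 CPM in *Mael*-/-, which overlapped. Its footprints stood at 10.6, 9.96 and 11.7 CPM in *Mael*+/- and at 9.39, 8.78 and 9.02 CPM in *Mael*-/-, which did not overlap. These rest on 76 to 124 footprint counts per library, the fewest of the 8 members. The log2 fold change in footprints was -0.25 (SE 0.15, interval -0.59 to 0.09, adjusted p = 0.998, edgeR). *Trex1* and *Adar*, with opposite signs, were the 2 of 8 members whose footprint groups did not overlap, where 9.1% of all genes tested showed no overlap. In RNA this held for 0 of 8 members, where the share over all genes was 10.3%. RefSeq also annotates a readthrough gene of *Atrip* and *Trex1* on the same strand, which is not a row of the count table, so reads of the 2 transcripts are not told apart.

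*Samhd1* encodes a phosphohydrolase that lowers the supply of deoxynucleotides, and lies at chr2:157097534-157135096 on the minus strand. Its RNA stood at 40.4, 45.9 and 42.3 CPM in *Mael*+/- and 42.7, 41.2 and 42.4 CPM in *Mael*-/-. In footprints it stood at 83.8, 76.4 and 80.9 CPM and at 84.1, 76.2 and 81.7 CPM. It was the steadiest member in both assays, its highest library being 1.14 times the lowest in RNA and 1.103 times in footprints. The log2 fold change was -0.03 (SE 0.09) in RNA and 0.01 (SE 0.09) in footprints.

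*Rnaseh2a* encodes the catalytic subunit of RNase H2, which cleaves the RNA strand of RNA-DNA hybrids and is reported both to aid and to limit L1. It lies at chr8:84956610-84969598 on the minus strand. Its RNA stood at 45.5, 58.0 and 53.4 CPM in *Mael*+/- and 45.7, 49.5 and 60.6 CPM in *Mael*-/-. Its footprints stood at 45.9, 43.1 and 43.6 CPM and at 45.03, 38.1 and 49.6 CPM. The groups overlapped in both assays, and the RNA log2 fold change was -0.01 (SE 0.13). The other subunits, *Rnaseh2b* and *Rnaseh2c*, overlapped between genotypes too, at 39.1 to 44.2 CPM and 22.9 to 27.1 CPM over the 6 RNA libraries.

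**Figure D3:**
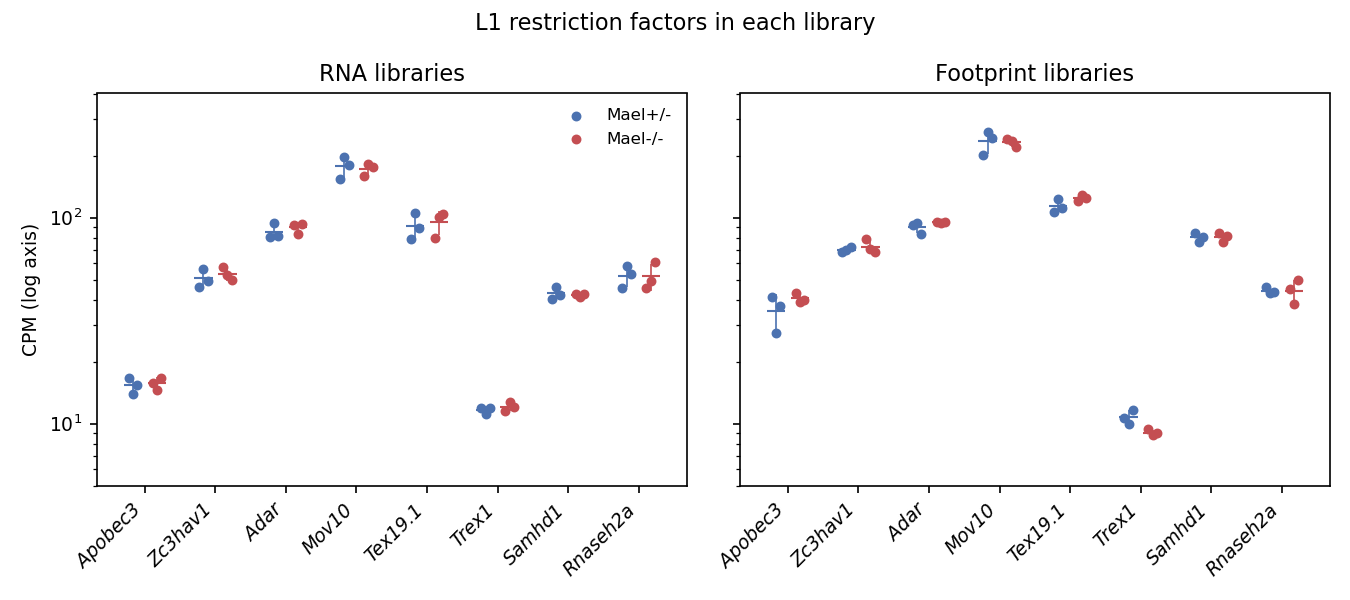
Level of each restriction factor in each library, in RNA on the left and in footprints on the right. The y axis is CPM on a log axis, points are libraries, horizontal lines are means and vertical lines are 1 SD over 3 libraries. The genotypes overlap in 14 of the 16 pairs. In *Trex1* footprints the *Mael*-/- libraries (8.78 to 9.39 CPM) lie under the *Mael*+/- libraries (9.96 to 11.7 CPM), and in *Adar* footprints they lie slightly above.

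In RNA the first *Mael*+/- library was the lowest of the 6 for 6 of the 8 members, and the second was the highest for 4. The low library is the one with the high pachytene sum, and the part of these cells in the members' levels was not tested beyond leaving the library out. Correlations among the members were of both signs. Over the 12 libraries, with log2 CPM centred within each assay, the 28 pairs of members had Pearson correlations from -0.64 (*Mov10* with *Apobec3*) to 0.72 (*Mov10* with *Tex19.1*), with a median of 0.08 and 18 pairs above 0. RNA and footprint libraries of an extract share their source, so the 12 points are not independent. By the same measure, among 13447 genes, the genes most like *Mov10* were *Hspa1a* (r = 0.96) and *Klc4* (r = 0.95), those most like *Apobec3* were *Medag* (r = 0.95) and *Gcnt4* (r = 0.92), and those most like *Tex19.1* were *Zfp764* (r = 0.94) and *Rpp25l* (r = 0.92). *Zc3hav1* was most like *Adck3* (r = 0.96) and *Ets1* (r = 0.91), *Adar* most like *Dnah9* (r = 0.91) and *Atad3a* (r = 0.89), and *Samhd1* most like *Susd2* (r = 0.91). For *Trex1* they were *Tmem147* (r = 0.89) and *Ten1* (r = 0.85), and for *Rnaseh2a* *Crlf3* (r = 0.91) and *Nop56* (r = 0.90). These values describe likeness over few libraries and carry no test.

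Between genes, levels were compared as CPM per kilobase, using the exon length for RNA and the coding length for footprints. In *Mael*+/- RNA *Tex19.1* came first, at 52.3 ± 7.92 CPM per kilobase (SD, n = 3), above 87.9% of the genes tested. *Mov10* followed at 47.0 ± 5.86 (86.1%), and the ranges of these 2 genes overlapped. *Rnaseh2a* came next at 24.8 ± 3.02, then *Adar* at 13.8 ± 1.27, *Trex1* at 10.3 ± 0.412, *Samhd1* at 9.10 ± 0.590, *Zc3hav1* at 7.67 ± 0.818 and *Apobec3* at 5.85 ± 0.517, which stood above 32.6% of genes. Within this order no other neighbours overlapped, although the lowest *Samhd1* library (8.58) and the highest *Zc3hav1* library (8.57) were next to each other. The order was the same in *Mael*-/- RNA.

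In footprints the order was different below the top. *Tex19.1* (107 ± 8.42 CPM per kilobase of coding sequence, SD, n = 3), *Mov10* (72.7 ± 9.46) and *Rnaseh2a* (48.8 ± 1.68) again led in *Mael*+/-. *Samhd1* (36.5 ± 1.68) and *Apobec3* (27.4 ± 5.57) came next, ahead of *Adar* (24.4 ± 1.46), *Zc3hav1* (22.4 ± 0.542) and *Trex1* (11.4 ± 0.934). The ranges of *Apobec3*, *Adar* and *Zc3hav1* overlapped. *Apobec3* moved from above 32.6% of genes in RNA to above 54.0% in footprints, and *Samhd1* from 42.0% to 62.8%, while *Trex1* moved from 44.98% to 32.2%. Without the first *Mael*+/- extract the order of the members was the same in RNA and in footprints, and *Apobec3* moved from 32.2% to 51.7%.

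Footprints per RNA, as log2 ratios per length, ranged from 0.15 to 2.21 among the members in *Mael*+/-. These ratios compare genes and depend on the lengths used, unlike the differences between genotypes given above (-0.30 to 0.16), in which lengths cancel. *Apobec3* and *Samhd1* had the most footprints for their RNA and *Trex1* the fewest. Per extract, as the log2 ratio of footprint CPM per coding kilobase to RNA CPM per exon kilobase, *Apobec3* stood at 2.34, 1.998 and 2.30 in *Mael*+/- and 2.48, 2.43 and 2.28 in *Mael*-/-. The *Mael*+/- mean of 2.21 was above that of 93.1% of genes. *Samhd1* stood at 2.15, 1.83 and 2.03 in *Mael*+/- and 2.07, 1.98 and 2.04 in *Mael*-/-, above 90.4% of genes by its *Mael*+/- mean. *Zc3hav1* had *Mael*+/- values of 1.66, 1.38 and 1.62 and stood above 80.4%. The next members, *Tex19.1* (mean 1.05), *Rnaseh2a* (0.98), *Adar* (0.83) and *Mov10* (0.63), fell within the middle 50% of genes, which ran from 0.44 to 1.39 around a median of 0.87. *Trex1* stood at 0.09, 0.11 and 0.24 in *Mael*+/- and at -0.04, -0.26 and -0.15 in *Mael*-/-. It lay above 12.6% of genes in *Mael*+/- and 6.14% in *Mael*-/-, and its genotype groups did not overlap, as was so for 6.28% of all genes tested. For *Trex1* the interaction test gave -0.30 (SE 0.17, adjusted p = 0.9999, edgeR), and -0.30 with the extract as a block (adjusted p = 0.9999, edgeR). The order of the members by their *Mael*+/- ratio was the same without the first extract, and *Apobec3* (2.15), *Samhd1* (1.93) and *Trex1* (0.18) then stood above 91.8%, 88.5% and 14.3% of genes.

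**Figure D4:**
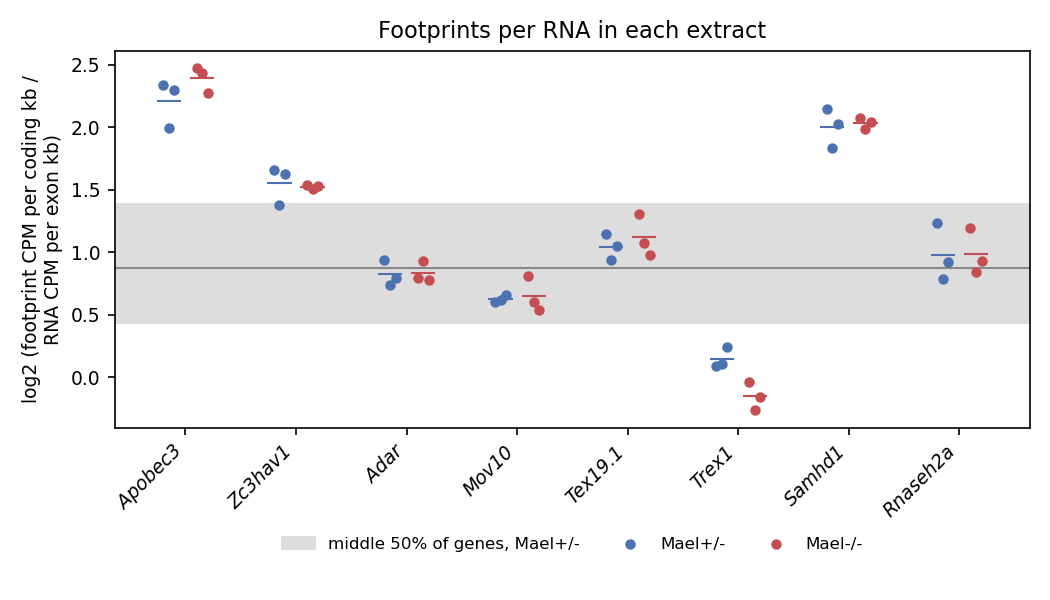
Footprints per RNA of each restriction factor in each extract. The y axis is the log2 ratio of footprint CPM per coding kilobase to RNA CPM per exon kilobase, points are extracts, lines are means, the grey line is the median of all genes tested in *Mael*+/- and the grey band their middle 50%. The means of *Apobec3*, *Samhd1* and *Zc3hav1* lie above the band and that of *Trex1* below it in both genotypes. The second *Mael*+/- extract of *Zc3hav1* (1.38) lies just inside the upper edge of the band (1.39).

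The contrast of footprint CPM with RNA CPM, which does not divide by length, was tested within each genotype against the spread of the libraries. In *Mael*+/-, 5 of 8 members were called, all 5 higher in footprints, where edgeR called 57.9% of 13448 genes, 24.1% higher and 33.9% lower. The log2 difference was 1.21 (SE 0.14, 2.31-fold) for *Apobec3*, 0.91 (SE 0.08, 1.87-fold) for *Samhd1*, 0.46 (SE 0.10) for *Zc3hav1*, 0.40 (SE 0.11) for *Mov10* and 0.32 (SE 0.12) for *Tex19.1*. The edgeR adjusted p ran from 3.42e-07 for *Samhd1* to 0.0345 for *Tex19.1*. *Adar* (0.07, SE 0.09) and *Trex1* (-0.11, SE 0.12) did not pass. In *Mael*-/-, 6 of 8 were called, where edgeR called 58.6% of genes, 24.2% higher and 34.4% lower. The same 5 members were higher in footprints, at 1.37 (SE 0.14) for *Apobec3*, 0.94 (SE 0.08) for *Samhd1*, 0.45 (SE 0.10) for *Zc3hav1*, 0.43 (SE 0.11) for *Mov10* and 0.39 (SE 0.12) for *Tex19.1*. *Trex1* was the sixth and was lower, at -0.42 (SE 0.12, adjusted p = 0.00778, edgeR). Since the interaction test above did not pass, the call in one genotype alone does not show that *Trex1* differed between them.

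*Rnaseh2a* was the member whose call depended on the pairing of RNA and footprints by extract. Its log2 difference was -0.24 (SE 0.13, adjusted p = 0.115) in *Mael*+/- and -0.23 (SE 0.13, adjusted p = 0.130) in *Mael*-/- by edgeR without the block. With the extract as a block in edgeR the values were -0.24 (adjusted p = 0.0217) and -0.23 (adjusted p = 0.0269). The member was then called lower in footprints in both genotypes. Of the *Rnaseh2a* coding windows, 24.4% had an exact copy elsewhere, as had 23.1% of those of *Mov10*. The footprint counts of both depend on how reads with several matches were treated, while RNA reads were longer than these windows. The part of this in both members' contrasts and ratios of footprints with RNA was not tested. Without the first *Mael*+/- extract, in the unpaired edgeR fit, 4 members were called higher and 1 lower in *Mael*+/-, where 56.2% of all genes were called. *Rnaseh2a* gave -0.36 (adjusted p = 0.0371) and *Tex19.1* was no longer called (0.27, adjusted p = 0.0728). The call of *Tex19.1* in *Mael*+/- was also lost in edgeR's fit without the first (0.22, adjusted p = 0.137) or the third RNA library (0.30, adjusted p = 0.0867), or without the second (0.25, adjusted p = 0.124) or the third footprint library (0.33, adjusted p = 0.0597). In *Mael*-/- it was lost without the first RNA library (0.28, adjusted p = 0.0570). For *Rnaseh2a* in *Mael*+/- leaving out the first RNA library alone gave -0.34 (adjusted p = 0.0352, edgeR).

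Footprints were counted over coding sequence and RNA over the whole mRNA, so the contrast of CPM also holds the share of the mRNA that is coding. The coding share of the exon length was 85.7% for *Mov10* and 83.1% for *Trex1*, and 42.96% to 60.7% for the other 6 members. Per length, *Rnaseh2a* had a log2 ratio of 0.98 in *Mael*+/-, against -0.24 per CPM. *Apobec3* and *Samhd1* had the highest ratios of the 8 on both scales, and *Trex1* had the lowest per length.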

How the data were processed

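Per the labels and the study's methods, the authors aligned reads to mm10 with STAR 2.6.0c, after removing footprint reads of ribosomal DNA with Bowtie 1.2.2, and counted them with featureCounts (Subread 1.6.4) RNA along entire mRNAs and footprints only within coding sequence. The deposited table holds these raw counts, without normalization, for 20620 genes and 5138235 repeat copies. The footprint linker carried a molecular identifier that was trimmed; whether duplicates were collapsed, reads with several matches kept or strand used in counting is not given in the sources used here. Deposited result tables hold the authors' own DESeq2 1.24.0 log2 fold changes and p-values and were not used.

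Differences were tested on the counts by edgeR's quasi-likelihood test (edgeR 4.0.16, R 4.3.3). Library size was the gene total with a TMM factor per assay, low genes were removed by filterByExpr, and p-values were adjusted by Benjamini-Hochberg over all genes tested, with a threshold of 0.05. RNA and footprints were each fitted over 6 libraries with genotype as the only term. Translation efficiency and the contrasts of footprints with RNA came from 1 model over 12 libraries, for genes that passed the filter in both assays. Intervals are 95% confidence intervals, and the precision of a value is limited by 3 libraries per group at the depths given above. The tests were tried on simulated counts. Alternatives were DESeq2 1.42.0, median-of-ratios (RLE) factors, no filter, a replicate block and leaving out each library. Leaving the first *Mael*+/- extract out of both assays, and of the lists and levels, was added after its marker sums had been seen.

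RNA and footprints were made from aliquots of the same extracts. Deviations from group means correlated across 13448 genes at 0.78, 0.63 and 0.68 in *Mael*+/- and at 0.26, 0.25 and 0.26 in *Mael*-/-, each over 0.1, so extracts pair the 2 assays. Exon and coding lengths and coordinates came from RefSeq annotation of GRCm38.p6, the build of mm10. Lengths were the union over a gene's curated transcripts. Of the gene rows, 19310 matched a current symbol, 1191 an older one and 119 none.

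The members and lists were chosen with earlier results of these data known. All 8 members are named. From lists of paralogs and partners, other L1 inhibitors, L1 cofactors, interferon-stimulated genes and cell type markers, genes past the threshold between genotypes are named, or up to 3 per list and contrast with the smallest unadjusted p under 0.05. In footprints against RNA the L1 inhibitors are given as counts, and the other lists' many calls are not given. A few partners are named beside their member, and *Trim25* and *Khnyn* were added after their values were seen. Likeness was Pearson's r of log2(CPM + 0.5), with the 2 nearest genes named, of which 1 is not reported here.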

Additional observations from a re-analysis of the deposited data

How the results depend on the processing

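The members' genotype differences stayed small under all alternatives tried, with 296 values between -0.35 and 0.32 on the log2 scale and a smallest adjusted p of 0.688. Of these, 51 changed sign, and the largest size after a change was 0.09. Of 272 values of footprints against RNA, 262 kept their call, 6 lost it and 4 gained it, and 0 changed sign. With 3 libraries per group and 76 to 124 footprint counts of *Trex1* per library, differences within each member's interval are not excluded.

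The count of all genes called moved most. DESeq2 called 58 genes in RNA and 21 in footprints, and a block on the replicate number called 50 and 23, against 17 and 8 reported. Leaving out 1 library gave 2 to 64 genes in RNA, most without the first *Mael*+/- library (64) and fewest without the first *Mael*-/- library (2), with 8, 7 and 8 without *Mael*+/- library 3 and *Mael*-/- libraries 2 and 3. In footprints it gave 2 to 17, again most without the first *Mael*+/- library, and 4, 2, 3, 3 and 4 without the others. The cause was not tested. Whether replicate numbers pair the genotypes is not given by the labels. The correlations (-0.02 to 0.24 in RNA and 0.05 to 0.22 in footprints) lay on both sides of 0.1 and do not settle it. The block on the replicate number was therefore not read as a paired test. The block on extracts, which do pair RNA with footprints, changed no member call other than that of *Rnaseh2a*.

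Values that changed sign were near 0. For *Rnaseh2a* footprints, at 6.2e-05 as reported, they were -0.0018 with RLE factors, -0.00026 without a filter, -0.0044 with the replicate block and -0.0019 with DESeq2. *Zc3hav1* translation efficiency was 0.031 without the first *Mael*+/- extract in both assays, an alternative chosen after seeing the data. Leaving out 1 library gave, in RNA, ranges of -0.14 to 0.042 for *Mov10*, -0.030 to 0.097 for *Apobec3*, -0.068 to 0.025 for *Samhd1*, -0.033 to 0.18 for *Tex19.1* and -0.14 to 0.074 for *Rnaseh2a*. In footprints the ranges were -0.12 to 0.057 for *Mov10*, -0.030 to 0.046 for *Samhd1*, -0.012 to 0.094 for *Zc3hav1* and -0.087 to 0.098 for *Rnaseh2a*. In translation efficiency they were -0.078 to 0.12 for *Mov10*, -0.019 to 0.073 for *Samhd1*, -0.10 to 0.047 for *Zc3hav1*, -0.067 to 0.051 for *Adar*, -0.050 to 0.17 for *Tex19.1* and -0.077 to 0.14 for *Rnaseh2a*.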

Other observations

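Other genes that act on L1 were not called between genotypes either. Of 20 further L1 inhibitors, 0 were called and 0 had an unadjusted p under 0.05 in RNA, footprints or translation efficiency by edgeR's test, where 5.4%, 4.33% and 0.394% of all genes had such a p. Their median log2 fold changes were -0.03, -0.06 and 0.01, and without the first *Mael*+/- extract 2 of the 20 had an unadjusted p under 0.05 in RNA and 2 in footprints, against 6.41% and 6.12% of all genes. In footprints against RNA, 8 of the 20 were called higher and 6 lower in *Mael*+/-, where 24.1% and 33.9% of all genes were. Of 5 host cofactors of L1, 0 were called in RNA or footprints by edgeR's test, which called 0.116% and 0.0593% of all genes. *Pabpc1*, a poly(A)-binding protein found in L1 ribonucleoproteins, had the smallest p among them, at -0.61 in RNA (adjusted p = 0.888, edgeR) and -0.33 in footprints (adjusted p = 0.998, edgeR), and at -0.23 and -0.15 without the first *Mael*+/- extract. Of 14 tested paralogs and partners of the members, 0 were called in either assay, where the test called 0.116% and 0.0593% of all genes.

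Interferon-stimulated genes, some of which encode antiviral factors, lay mostly above 0 without a call. In RNA 17 of 18 tested genes had a positive value, with a median of 0.17, and in footprints 12 of 15, with a median of 0.22. *Oasl2* had the smallest p in RNA (0.33, adjusted p = 0.905, edgeR) and *Usp18*, an interferon-induced protease, in footprints (0.52, adjusted p = 0.998, edgeR). The summed level of the list ran from 228 to 317 CPM in *Mael*+/- RNA and from 279 to 332 CPM in *Mael*-/- RNA, which overlapped. Macrophage markers also lay above 0, in 13 of 13 genes in RNA with a median of 0.31 and in 12 of 13 in footprints with a median of 0.21. Without the first *Mael*+/- extract the RNA medians were 0.11 for the interferon-stimulated list (13 of 20 above 0) and 0.22 for the macrophage list (12 of 13 above 0). Their smallest p was that of *C1qa* in RNA (0.39, adjusted p = 0.910, edgeR). The part of macrophages in the interferon-stimulated list was not tested.

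Pachytene markers lay below 0 in 12 of 12 tested genes in RNA, with a median of -1.56, and in 9 of 9 in footprints, with a median of -1.43. None of them was called by edgeR's test. Its unadjusted p was under 0.05 for 9 of 12 in RNA and 6 of 9 in footprints, against 5.4% and 4.33% of all genes. *Adam2*, a sperm surface gene, was at -3.60 in RNA (adjusted p = 0.423, edgeR) and -3.71 in footprints. *Nme5* was at -1.59 and -1.67, *Spata16* at -3.12 in RNA and *Ldhc*, the germ cell lactate dehydrogenase, at -3.16 in footprints. Without the first *Mael*+/- extract, which had the high sums of this list, the medians were -0.55 in RNA and -0.44 in footprints. EdgeR then called *Adam2* (-1.96, adjusted p = 0.00273) and the germ cell chaperone gene *Hspa2* (-0.43, adjusted p = 0.0498) lower in RNA. Its unadjusted p was then under 0.05 for 7 of 12 markers in RNA and 6 of 9 in footprints, against 6.41% and 6.12% of all genes. Median log2 fold changes in RNA were -0.22 for early prophase, -0.03 for spermatogonia, 0.0043 for Sertoli and 0.05 for Leydig markers, with 0 genes called in each list by edgeR. In footprints they were -0.30, -0.04, 0.02 and 0.06, again with 0 called. The smallest p in these lists were those of *Insl3* in RNA (0.78) and, in footprints, *Hsd17b3* (-0.59), *Sycp3* (-0.77) and *Sohlh2* (-0.28), with adjusted p of 0.852 or more in edgeR's test. Without the first *Mael*+/- extract the early prophase medians turned to 0.25 in RNA and 0.10 in footprints, and edgeR called *Meiob*, a meiotic recombination gene, higher in RNA (0.71, adjusted p = 0.0492), while *Sycp3* was at -0.064 in footprints. *Meiob* and *Hspa2* were named after their values were seen.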
